A study of Rattus norvegicus with 12 samples.

Results

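Magnesium transporter genes were followed in the left ventricle of rats with heart failure (HF) through 8 named genes, Slc41a1, Slc41a2, Slc41a3, Cnnm2, Cnnm4, Trpm6, Trpm7 and Magt1. They were taken by symbol from the deposited gene table, and each symbol matched 1 of its 34700 genes. Slc41a3 put the family forward: it was chosen by measured values, since it was known to differ between the BAIBA and HFE rats. Its values in that contrast, and whether it was called there, describe how it was chosen and are not read as a test. RNA was sequenced from 12 male Sprague-Dawley rats operated on at 8 weeks of age, 3 per group, in the groups named Sham, HF, HFE and BAIBA, and the hearts were taken 12 weeks after surgery. HF followed myocardial infarction, made by tying off the anterior descending branch of the left coronary artery, and in Sham rats the thread was placed but not tied. The HFE rats had the same infarct and treadmill training, 60 min per day and 5 days per week, over 8 weeks. The BAIBA rats had the infarct and received β-aminoisobutyric acid, a small molecule released by exercising muscle, at 75 mg/kg/day over 8 weeks. The HF rats were kept sedentary. The HF, HFE and BAIBA groups thus shared the infarct, and the comparison of BAIBA with HFE set the molecule beside the training. BAIBA was given by gavage in water, and the paper lists its exercise and BAIBA studies separately. Gavage with water is stated for Sham and HF rats but not for HFE rats. If gavage or cohort differed, it cannot be told apart from treatment in BAIBA against HFE. The methods take tissue from the anterior wall of the left ventricle and, for BAIBA, name the area around the infarct. The paper's results section places the HF tissue around the infarct as well, and does not name the HFE tissue there. Treatment and sampled site cannot be told apart in a comparison with BAIBA if the sites differed.

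Magnesium ions bind most of the ATP in a cardiomyocyte, compete with calcium and modulate ion channels, so heart muscle keeps free magnesium within narrow limits. SLC41A1 is a sodium-dependent magnesium exporter of the plasma membrane, SLC41A2 is a related carrier, and SLC41A3 has been described as a mitochondrial magnesium exporter. CNNM2 and CNNM4 take part in magnesium export across epithelia, TRPM6 and TRPM7 are channels fused to a kinase, and MAGT1, first described as a magnesium transporter, is a subunit of the oligosaccharyltransferase that adds sugars to proteins in the endoplasmic reticulum.

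Promoter windows are shown first, for the members in which CACGTG was found, an E-box that the clock proteins BMAL1 and CLOCK can bind. The windows are from RefSeq, on build GRCr8, and run from 250 bases before to 50 bases after an annotated start. The motif reads the same on both strands, is in capitals, and was chosen after the likeness of Slc41a3 to the clock gene Arntl, given below, had been seen. Of the 8 genes, 6 had a window in the table (9 windows in all), and Slc41a1 and Cnnm4 had none. Among all 33469 windows of this length, 6.42% held the motif.
Slc41a3, chr4:124684717-124685016, plus strand: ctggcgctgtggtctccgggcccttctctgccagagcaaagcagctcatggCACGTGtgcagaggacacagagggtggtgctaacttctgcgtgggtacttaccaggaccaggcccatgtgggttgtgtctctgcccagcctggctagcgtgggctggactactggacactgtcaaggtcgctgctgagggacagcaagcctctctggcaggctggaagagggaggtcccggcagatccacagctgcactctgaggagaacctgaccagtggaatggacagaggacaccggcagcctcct
Trpm7, chr3:134588064-134588363, minus strand: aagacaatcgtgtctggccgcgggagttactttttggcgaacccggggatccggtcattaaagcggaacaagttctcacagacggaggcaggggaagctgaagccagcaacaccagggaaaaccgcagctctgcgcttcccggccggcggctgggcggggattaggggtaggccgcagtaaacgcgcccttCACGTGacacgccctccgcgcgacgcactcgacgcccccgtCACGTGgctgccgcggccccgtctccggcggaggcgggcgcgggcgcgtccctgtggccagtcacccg
The E-box began at base -199 relative to the start in the Slc41a3 window, and at bases -59 and -18 in that of Trpm7. The Slc41a3 window lies inside the annotated gene span, so it belongs to an internal start, and which start the heart uses was not measured. A match is a description of letters and does not show a binding site.

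The libraries held between 14812541 and 19732588 counts on genes. The summed level of 11 cardiomyocyte markers lay between 51009 and 61786 CPM (counts scaled to a common library size, here with TMM factors over the 12 rats), the highest of the 9 cell type lists in each rat. BAIBA rat 1 had the highest fibroblast and scar sum (2289 CPM against 1148 to 1771 in the other 11 rats) and the highest macrophage sum (320.1 CPM). HF rat 1 had the highest lymphocyte sum, at 89.7 CPM against 3.34 to 10.9 CPM in the others. The atrial sum of 5 genes ran from 12.4 CPM in BAIBA rat 2 to 538.1 CPM in HF rat 3, and reached 440.9 CPM in Sham. In such whole-tissue RNA, fewer cells of a type and less RNA per cell cannot be told apart. Each library is a numbered heart in the labels and is taken here as 1 rat.

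Compared per length, 3 of the genes were abundant, a pair were intermediate and the other 3 were scarce. On the FPKM scale, in which counts are divided by gene length and depth, the mean level over the 12 rats was 21.6 ± 1.71 (SD, n = 12) for Slc41a1, 19.7 ± 7.33 for Slc41a3 and 19.1 ± 1.67 for Magt1. These neighbours were not separated: Slc41a1 was above Slc41a3 in 7 of 12 rats, and Slc41a3 was above Magt1 in 7 of 12. The range of Slc41a3 was the widest of the 3, at 9.63 to 31.3 FPKM, against 18.3 to 24.1 FPKM for Slc41a1 and 15.8 to 21.7 FPKM for Magt1. Trpm7 followed at 7.72 ± 1.29 FPKM and Cnnm4 at 5.46 ± 0.55 FPKM, with Trpm7 higher in 11 of 12 rats. Cnnm2 had a mean of 0.92 ± 0.17 FPKM and Slc41a2 one of 0.38 ± 0.11 FPKM, in this order in 12 of 12 rats. Trpm6, best known from the kidney tubule and the gut, had a mean of 0.033 FPKM and was at or below 20 counts in every library.

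**Figure D1:**
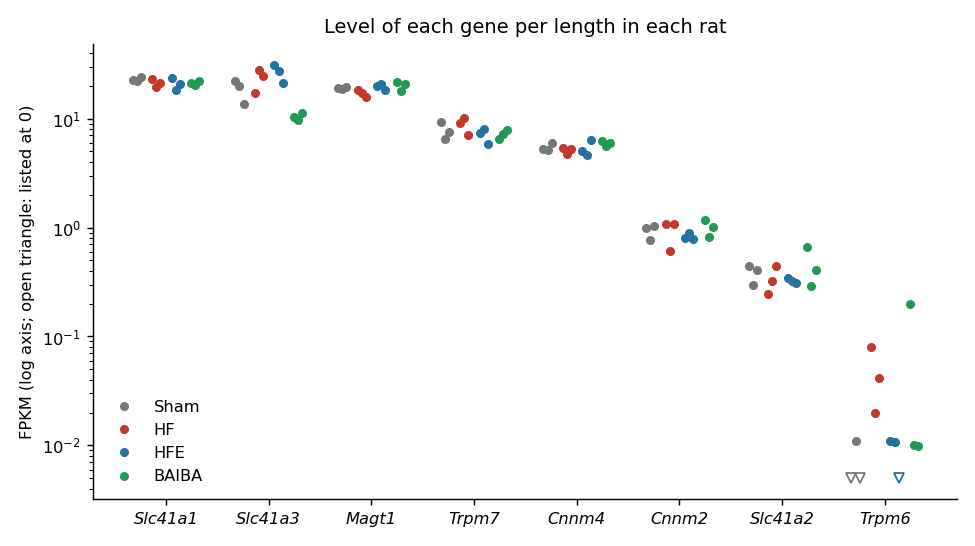
FPKM of each of the 8 genes (log axis) in each rat, ordered by mean level and coloured by group, with open triangles for rats listed at 0. Slc41a1, Slc41a3 and Magt1 overlap at the top, the Slc41a3 points of the BAIBA rats sit near 10 FPKM, and Trpm6 lies lowest.

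The rank of Slc41a3 differed between groups. Its mean was 26.5 ± 5.04 FPKM (SD, n = 3) in HFE and 23.3 ± 5.39 FPKM in HF, above the Slc41a1 means of 21.0 and 21.3 FPKM in the same groups. In Sham its mean was 18.7 ± 4.49 FPKM, below Slc41a1 at 22.8 FPKM and near Magt1 at 19.2 FPKM. In BAIBA its mean was 10.4 ± 0.82 FPKM, under both Slc41a1 at 21.2 FPKM and Magt1 at 20.2 FPKM.

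Slc41a3 was lowest in the BAIBA rats. It measured 24.9, 26.0 and 29.2 CPM in BAIBA rats 1, 2 and 3, and 80.5, 74.1 and 57.9 CPM in HFE rats 1, 2 and 3. HF rats 1, 2 and 3 had 43.1, 73.6 and 66.9 CPM, and Sham rats 1, 2 and 3 had 58.8, 51.3 and 34.9 CPM. All 3 BAIBA rats were below each of the other 9 rats, as at 121 of 14394 genes tested in every comparison (0.841%), and the Sham, HF and HFE groups overlapped one another. The spread within BAIBA was narrow, with a ratio of highest to lowest rat of 1.17, against 1.68 in Sham, 1.71 in HF and 1.39 in HFE. The counts behind these values ran from 406 to 1263 per library.

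The log2 fold change of Slc41a3 in BAIBA against HFE was -1.40 (SE 0.14), which is 2.64-fold lower in BAIBA. It was 1 of the 12 genes among 14844 (0.0808%) that were called, meaning an edgeR adjusted p under 0.05 with a log2 fold change beyond 1 in either direction, and this is the contrast it was chosen from, so the call supports nothing here. A fit blocked on replicate number called 32 genes, Slc41a3 among them. Leaving out HFE rat 1, HFE rat 2, BAIBA rat 2 or BAIBA rat 3 ended the call, with log2 fold changes of -1.30, -1.37, -1.38 and -1.47. The fit of all 12 rats together also ended it, with the same fold change of -1.40. BAIBA and HFE rats did not overlap at 2301 of 14844 genes (15.5%), and Slc41a3 was the only one of the 7 members tested with no overlap.

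In BAIBA against HF the log2 fold change of Slc41a3 was -1.19 (SE 0.20), or 2.29-fold lower, and in BAIBA against Sham it was -0.85 (SE 0.19), or 1.80-fold lower. Both use the BAIBA rats that chose the gene, so they are read as sizes, side by side, and not as separate support. edgeR called Slc41a3 in neither, with adjusted p of 0.566 in BAIBA against HF and 0.355 in BAIBA against Sham. In BAIBA against Sham its DESeq2 adjusted p was 0.00795 at a log2 fold change of -0.86, inside the limit of 1. DESeq2 called it in BAIBA against HF, as did edgeR without HF rat 1, at a log2 fold change of -1.39. That rat had the lowest Slc41a3 of the HF rats, at 43.1 CPM, and is also the library with the high lymphocyte sum.

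Among the groups without BAIBA, the rats overlapped at Slc41a3 in all 3 comparisons. Only HF against Sham uses none of the rats behind the choice. There the log2 fold change was 0.33 (SE 0.26), the edgeR adjusted p was 0.860, and the two-sided exact permutation test on log2(CPM + 0.1) gave p = 0.4, where 3 against 3 rats cannot go below 0.1. The log2 fold change was 0.21 (SE 0.22) in HFE against HF and 0.55 (SE 0.21) in HFE against Sham, and these use the HFE rats that chose the gene. Neither edgeR nor DESeq2 called the gene in these 3 comparisons.

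**Figure D2:**
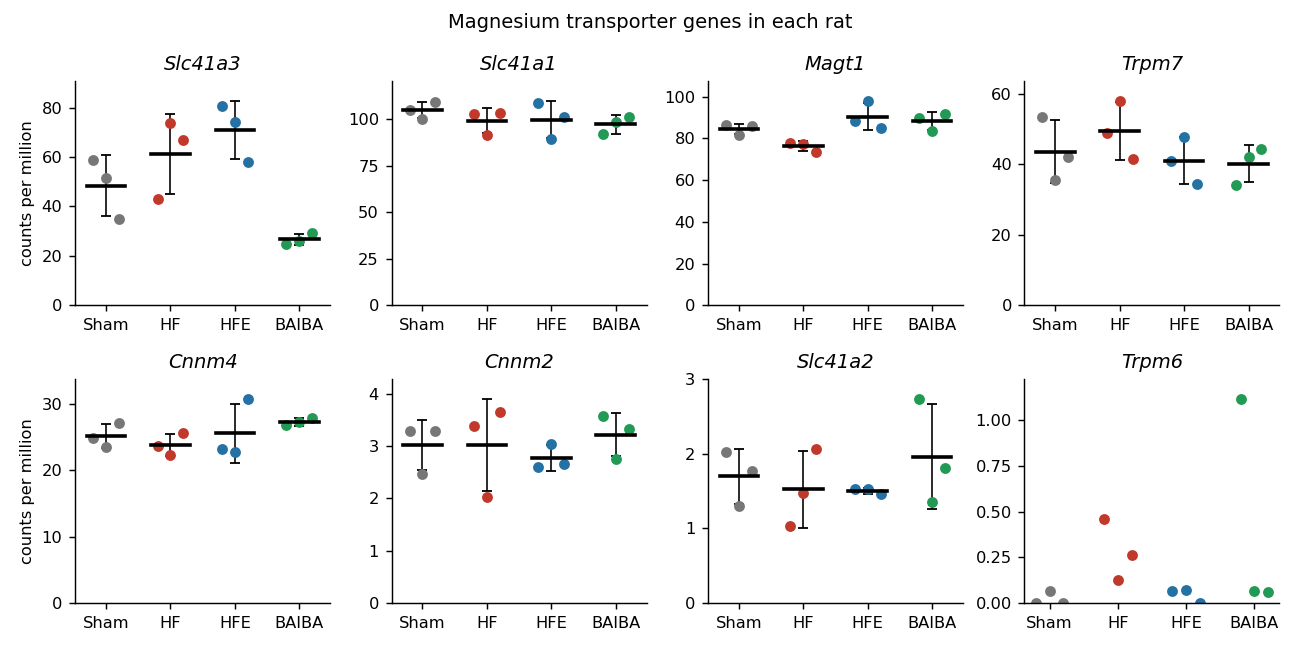
CPM of each gene in each rat, with 1 point per rat, a line at the group mean and bars of 1 SD (n = 3). No mean is drawn for Trpm6, which had few counts. Slc41a3 in BAIBA (24.9 to 29.2 CPM) lies below all other rats, whose lowest value is 34.9 CPM, and Magt1 is lowest in HF (73.7 to 77.8 CPM).

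Slc41a1 and Slc41a2, the other members of the SLC41 family, were not called in any comparison. Slc41a1 ranged from 100.4 to 109.3 CPM in Sham, from 91.3 to 103.3 CPM in HF, from 89.2 to 108.9 CPM in HFE and from 91.9 to 101.4 CPM in BAIBA. Its groups overlapped in all 6 comparisons, and its log2 fold changes lay between -0.10 (SE 0.09, BAIBA against Sham) and 0.01 (SE 0.10, HFE against HF). Slc41a2 was counted only 18 to 49 times per library. It ranged from 1.30 to 2.02 CPM in Sham, 1.03 to 2.07 CPM in HF, 1.46 to 1.53 CPM in HFE and 1.35 to 2.73 CPM in BAIBA, again with overlap. Its highest value was in BAIBA rat 1. The SE of its log2 fold changes was between 0.30 and 0.41, and differences of about that size could not be told from 0. In BAIBA against HFE the log2 fold change was 0.39 (SE 0.34), with an edgeR adjusted p of 0.791. Over the 12 rats, Pearson's r of log2 CPM with Slc41a3 was 0.02 for Slc41a1 and -0.23 for Slc41a2. Without the 2 rats farthest from the median of the gene itself, r was 0.60 for Slc41a1 and 0.05 for Slc41a2, so these values rest on few rats.

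Cnnm4 and Cnnm2, the cyclin M genes, were not called in any comparison. Cnnm4 measured 26.8, 27.3 and 27.9 CPM in BAIBA rats 1, 2 and 3, and 23.6, 22.3 and 25.7 CPM in HF rats 1, 2 and 3. The BAIBA rats were thus all above the HF rats, with a log2 fold change of 0.19 (SE 0.11) and an edgeR adjusted p of 0.851. They overlapped the Sham rats (23.6 to 27.1 CPM) and the HFE rats (22.8 to 30.8 CPM, with HFE rat 3 the highest of all 12). The r of Cnnm4 with Slc41a3 was -0.56 over the 12 rats, and -0.81 without the 2 rats farthest from its median. Cnnm2 was counted 33 to 69 times per library and lay between 2.02 and 3.65 CPM, with overlap between groups in every comparison. Its log2 fold change in HF against Sham was 0.00 (SE 0.29).

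Trpm7, the ubiquitous channel kinase of this set, had its highest group mean in HF. It measured 49.0, 57.8 and 41.6 CPM in HF rats 1, 2 and 3, and it ranged from 35.6 to 53.3 CPM in Sham, 34.4 to 47.7 CPM in HFE and 34.1 to 44.2 CPM in BAIBA. HF overlapped each of the others. The log2 fold change was 0.18 (SE 0.18) in HF against Sham, -0.27 (SE 0.16) in HFE against HF and -0.30 (SE 0.15) in BAIBA against HF. None was called, with edgeR adjusted p of 0.899, 0.698 and 0.851. Its r with Slc41a3 was 0.34 over the 12 rats, and 0.13 without the 2 rats farthest from its median.

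Trpm6, the epithelial relative of Trpm7, was at the edge of detection and did not pass the filter on low counts in any comparison. HF rats 1, 2 and 3 had 8, 2 and 5 counts, and Sham rats 1, 2 and 3 had 0, 1 and 0. HFE rats 1, 2 and 3 had 1, 1 and 0 counts. A count of 0 allows up to 0.172 CPM in Sham rat 1, 0.202 CPM in Sham rat 3 and 0.182 CPM in HFE rat 3, from counting error only, and the 3 HF rats were at 0.123 to 0.459 CPM. The HF rats were all above the Sham rats, and the two-sided exact permutation test on log2(CPM + 0.1) gave p = 0.1, the smallest it can give. That test was run on all 8 members in HF against Sham, with no adjustment for their number. Only Trpm6 and Magt1 reached this floor, and for the rest the exact permutation test gave p = 0.4 or higher. BAIBA rat 1 had 20 counts (1.12 CPM), while BAIBA rats 2 and 3 had 1 each. That rat is the one with the highest scar and macrophage sums, and the part of these cells in its Trpm6 count was not tested.

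Magt1 was lowest in HF. It measured 77.8, 77.5 and 73.7 CPM in HF rats 1, 2 and 3, and 86.3, 81.8 and 85.8 CPM in Sham rats 1, 2 and 3. HFE rats 1, 2 and 3 had 88.5, 97.7 and 85.0 CPM, and BAIBA rats 1, 2 and 3 had 89.7, 83.5 and 91.9 CPM. Every HF rat was below all 9 others, and the Sham, HFE and BAIBA groups overlapped. The log2 fold change was -0.15 (SE 0.08) in HF against Sham, 0.24 (SE 0.09) in HFE against HF and 0.21 (SE 0.09) in BAIBA against HF. All 3 comparisons use the same HF rats, so they are not separate observations. None passed edgeR's quasi-likelihood test, with adjusted p of 0.808, 0.634 and 0.851. The exact permutation test for HF against Sham gave p = 0.1, the smallest it can give, as 1 of the 8 run on the members. The pattern was noticed in these values, and all 3 HF rats lay below the other 9 at 99 of 14394 genes tested in every comparison (0.688%).

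MAGT1 works within the oligosaccharyltransferase, so the other subunits were read beside it. The summed level of 9 subunit genes was 412.3, 406.7 and 410.1 CPM in HF rats 1, 2 and 3. It ranged from 426.9 to 469.9 CPM in Sham, from 446.7 to 465.1 CPM in HFE and from 422.9 to 453.1 CPM in BAIBA. The HF rats were below the other 9 in this sum, but no share over other summed sets was taken, so it is a description only. In 6 of the 9 genes (Stt3a, Ddost, Rpn1, Rpn2, Ostc and Krtcap2) the HF mean was the lowest of the 4 group means, beside 22.8% of the 14394 genes. For Stt3a it was level with BAIBA, at 51.56 and 51.57 CPM. The lowest mean was in HFE for Stt3b (31.6 CPM, HF 35.2), in Sham for Dad1 (22.9 CPM, HF 23.0) and in BAIBA for Ost4 (41.5 CPM, HF 44.7). The log2 fold change of Stt3b in HFE against HF was -0.16 (SE 0.09), opposite in sign to that of Magt1. Tusc3, which can take the place of MAGT1 in the complex and was listed with the other transporters, had its highest group mean in HF. It ranged from 6.51 to 6.69 CPM in HF, from 4.27 to 6.09 CPM in Sham and from 5.07 to 5.99 CPM in HFE, without overlap, and from 5.69 to 7.24 CPM in BAIBA. Its log2 fold change was 0.28 (SE 0.19) in HF against Sham, with an edgeR adjusted p of 0.843. Ostc, a small subunit of the complex with the catalytic protein STT3A, ranged from 25.4 to 32.4 CPM in HF and from 36.9 to 40.8 CPM in HFE, a log2 fold change of 0.42 (SE 0.11) in HFE against HF with an edgeR adjusted p of 0.627. The median log2 fold change of the 9 genes was -0.08 in HF against Sham, 0.14 in HFE against HF and 0.11 in BAIBA against HF, beside 0.01, -0.01 and -0.01 over all genes tested. These comparisons, too, share the HF rats and are not separate observations. Neither edgeR nor DESeq2 called any of the 9. At an unadjusted p under 0.05, edgeR counted 2 as lower in HF against Sham (Ddost and Ostc), beside 6% of all genes, and 3 as higher in HFE against HF (Ddost, Rpn1 and Ostc), beside 7.62%.

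**Figure D3:**
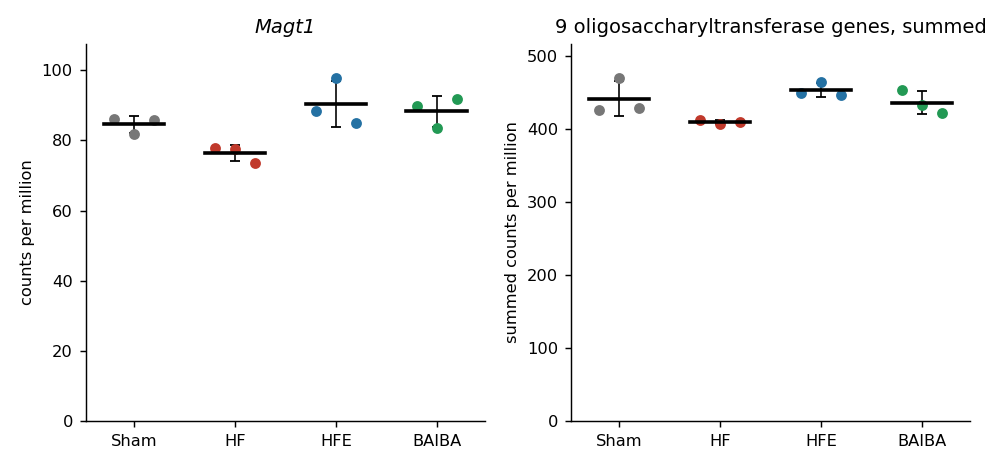
CPM of Magt1 (left) and summed CPM of 9 oligosaccharyltransferase subunit genes without Magt1 (right) in each rat, with the group mean and bars of 1 SD (n = 3). The HF rats lie lowest in both, at 73.7 to 77.8 CPM and 406.7 to 412.3 CPM.

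Across the 6 comparisons Slc41a3 was the only member that edgeR called, and the counts are set here beside those over all genes. In HF against Sham, 0 of 7 members tested were called, as were 0 of 14957 genes (0%), and 1 member, Magt1, did not overlap, beside 11.8% of genes. In HFE against HF, 0 of 7 were called, as were 0 of 14938 genes (0%), and Magt1 alone did not overlap, beside 14.4% of genes. In BAIBA against HF, 0 of 7 were called, as were 0 of 15039 genes (0%), and 3 did not overlap (Slc41a3, Cnnm4 and Magt1), beside 11.4% of genes. In BAIBA against Sham, 0 of 7 were called, beside 6 of 14920 genes (0.0402%), and Slc41a3 alone did not overlap, beside 12.7% of genes. In HFE against Sham, 0 of 7 were called, as were 0 of 14804 genes (0%), and 0 members were without overlap, beside 17.7% of genes. At an unadjusted p under 0.05, edgeR counted 0 members in HF against Sham and 1 in each of the other comparisons: Magt1 in HFE against HF and Slc41a3 in the rest. Over all genes that p was met by 6% in HF against Sham, 7.62% in HFE against HF, 5.55% in BAIBA against HF, 9.57% in BAIBA against HFE, 7.41% in BAIBA against Sham and 11.2% in HFE against Sham. DESeq2 called 1 member, Slc41a3, in BAIBA against HF (0.139% of genes) and in BAIBA against HFE (1.11%). It called 0 members in HF against Sham (0.152%), HFE against HF (0.121%), BAIBA against Sham (0.443%) and HFE against Sham (0.461%).

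The median log2 fold change over the 7 members was -0.08 in HF against Sham, 0.01 in HFE against HF, 0.09 in BAIBA against HF, 0.07 in BAIBA against Sham, -0.07 in HFE against Sham and -0.03 in BAIBA against HFE. Over all genes tested these medians were between -0.01 and 0.01. In one fit of all 12 rats, 0 members had an adjusted p under 0.05 in any of the 6 comparisons, and the lowest was that of Slc41a3 in BAIBA against HFE, which the choice of members had used.

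**Figure D4:**
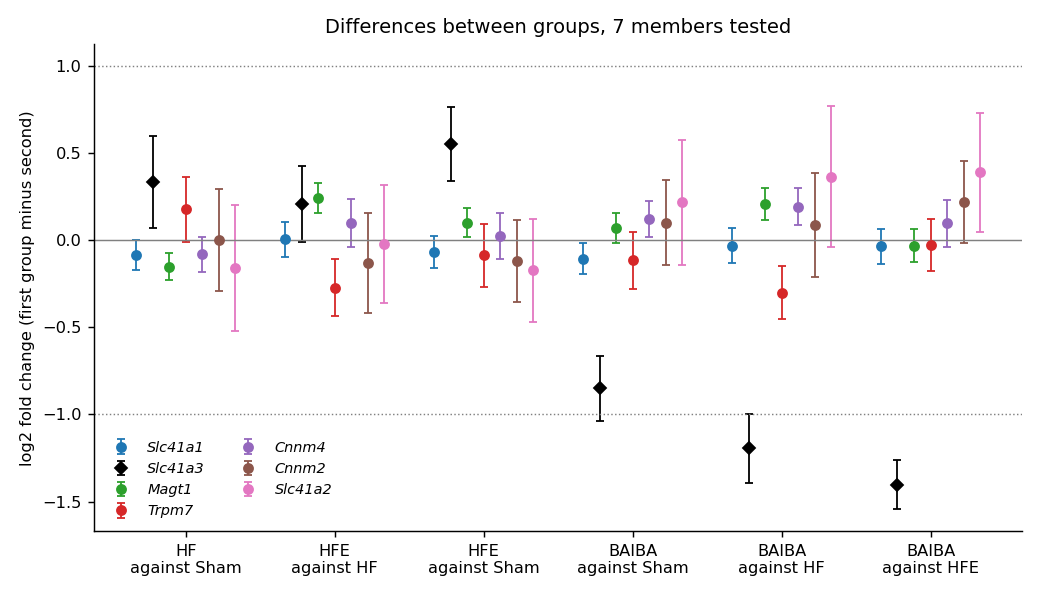
Log2 fold change (first group minus second) with bars of 1 SE for the 7 members tested in the 6 comparisons, from edgeR fits of the 2 groups compared, with dotted lines at -1 and 1. Slc41a3 (black diamonds) lies at -0.85, -1.19 and -1.40 in the comparisons with BAIBA, and the other 6 members lie between -0.30 and 0.39 in all comparisons.

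The wider gene lists gave no call. Beside magnesium genes they held oligosaccharyltransferase subunits, other TRPM channels and genes of mitochondrial calcium and proton exchange, so their pooled counts are not of magnesium handling alone. Of 54 genes in the table from 7 lists, 43 or 44 were tested in each comparison and edgeR called 0 in each. At an unadjusted p under 0.05, 5 were lower and 0 higher in HF against Sham, and 4 were higher and 1 lower in HFE against HF. Of the 5 lower in HF, 2 were oligosaccharyltransferase subunits. Of the 4 higher in HFE, 3 were oligosaccharyltransferase subunits and 1 was of mitochondrial calcium and proton exchange. The counts were 1 higher and 0 lower in BAIBA against HF, 1 higher and 1 lower in BAIBA against HFE, 2 higher and 1 lower in BAIBA against Sham, and 0 higher and 4 lower in HFE against Sham. As shares of the list genes tested these were 11.6%, 11.4%, 2.27%, 4.55%, 6.82% and 9.3%, in the order HF against Sham, HFE against HF, BAIBA against HF, BAIBA against HFE, BAIBA against Sham and HFE against Sham. They lie on both sides of the shares over all genes given above. DESeq2 called 0 of the list genes in each comparison.

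Among other magnesium transporters and channels, the most abundant per length were Nipa2 (11.3 FPKM), Mrs2 (11.0 FPKM), the channel of the inner mitochondrial membrane, and Mmgt1 (10.6 FPKM). Mrs2, which lets magnesium into mitochondria, ranged from 16.7 to 26.5 CPM in Sham and from 17.4 to 23.9 CPM in BAIBA, so its groups overlapped where those of Slc41a3 did not. Of the 11 genes of this list tested, 1 (Nipa1) was lower in HF against Sham and 1 (Nipal3) lower in HFE against HF and in HFE against Sham at an unadjusted p under 0.05.

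The carriers that exchange ATP-magnesium for phosphate across the inner mitochondrial membrane were led by Slc25a23 (17.1 FPKM), Slc25a25 (5.67 FPKM) and Slc25a24 (3.24 FPKM). Slc25a25 ranged from 17.2 to 23.9 CPM in BAIBA and from 10.8 to 12.2 CPM in Sham, without overlap. Its log2 fold change was 0.92 (SE 0.15) with an edgeR adjusted p of 0.123. The DESeq2 adjusted p was 0.00176 at a log2 fold change of 0.91, inside the limit of 1, and the range of the gene in HFE, 10.9 to 47.8 CPM, held that of BAIBA. Slc25a23 ranged from 36.7 to 39.2 CPM in Sham, 30.0 to 31.9 CPM in HF and 26.7 to 32.0 CPM in BAIBA. Its log2 fold changes were -0.30 (SE 0.08) in HF against Sham and -0.31 (SE 0.11) in BAIBA against Sham, with edgeR adjusted p of 0.805 and 0.612.

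Among the regulators of the CNNM proteins, the phosphatases Ptp4a2 and Ptp4a3, which bind CNNM proteins, had means of 134.3 and 123.0 FPKM, while Arl15 had 5.62 FPKM and Ptp4a1 had 2.87 FPKM. Ptp4a2 ranged from 147 to 171 CPM in BAIBA and from 128 to 146 CPM in HF, a log2 fold change of 0.26 (SE 0.11) with an edgeR adjusted p of 0.851. Of the other TRPM channels, Trpm4, Trpm2 and Trpm5 were the most abundant per length, at 4.70, 0.42 and 0.28 FPKM. Of the kidney genes, Fxyd2, Pcbd1 and Slc12a3 led at 17.4, 4.02 and 0.79 FPKM, and Cldn16 and Umod, which define the thick ascending limb, had 0 counts in all 12 rats. In mitochondrial calcium and proton exchange, Smdt1, Micu2 and Letm1 led at 152.8, 33.3 and 18.9 FPKM, and of the oligosaccharyltransferase genes Ost4, Rpn1 and Rpn2 led at 78.0, 38.9 and 34.8 FPKM.

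The genes most like Slc41a3 over the 12 rats were sought among 11807 others with a mean of at least 1 CPM, by Pearson's r of log2 CPM. They were Tle6 (r = 0.95), a co-repressor of the Groucho family, Bard1 (0.95), the partner of BRCA1, Sh3bp5 (0.93), Col4a2 (0.90), a basement membrane collagen, and Myocd (0.90), a coactivator of muscle genes. After the group means were removed their r was 0.76, 0.71, 0.84, 0.64 and 0.76. Bard1 was counted at 0.83 to 1.17 CPM in BAIBA and 3.53 to 4.01 CPM in HFE. Sh3bp5 was between 123.1 and 129.5 CPM in BAIBA, and between 148.3 and 190.9 CPM in the other 9 rats. The lowest r were those of Ngdn (-0.89), Adcy3 (-0.89), an adenylyl cyclase, Agtr1a (-0.89), the angiotensin II receptor, Col7a1 (-0.87) and Fam110a (-0.87). Agtr1a lay between 3.53 and 6.25 CPM in BAIBA and between 1.38 and 3.10 CPM in the other 9 rats. These values describe 12 libraries in 4 groups, and 3 of them are the BAIBA rats in which Slc41a3 was known to be low.

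The clock gene Arntl, which encodes BMAL1, ranked 10 of 11807 in this order and was named after its values were seen. It measured 17.7, 10.9 and 3.86 CPM in HFE rats 1, 2 and 3, and 1.84, 3.14 and 2.05 CPM in BAIBA rats 1, 2 and 3. HF rats 1, 2 and 3 had 5.50, 10.9 and 8.37 CPM, and Sham rats 1, 2 and 3 had 4.67, 3.18 and 2.76 CPM. The 4 rats with the highest Arntl were the 4 with the highest Slc41a3, in the same order. Of these, HFE rat 2 and HF rat 2 were nearly level in both genes, at 10.94 and 10.92 CPM of Arntl and 74.1 and 73.6 CPM of Slc41a3. HFE rat 3 was low in both for its group. Pearson's r with Slc41a3 was 0.88 and Spearman's rho 0.94 over the 12 rats. The r was 0.71 after the group means were removed and 0.84 without the 2 rats farthest from the median of Arntl.

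Other clock genes also differed between rats of 1 group. Per2, a repressor of the clock, measured 23.6, 37.3 and 100.6 CPM in HFE rats 1, 2 and 3, and ranged from 84.8 to 104.9 CPM in BAIBA. Npas2, a partner of BMAL1, measured 15.0, 11.7 and 4.62 CPM in HFE rats 1, 2 and 3, and ranged from 2.57 to 3.23 CPM in BAIBA. Nr1d1, another repressor, ranged from 43.6 to 59.6 CPM in BAIBA and from 79.1 to 100.3 CPM in HFE, without overlap. The r with Slc41a3 over the 12 rats was 0.77 for Clock, 0.66 for Npas2, 0.24 for Nr1d1, -0.04 for Ciart, -0.28 for Dbp and -0.36 for Nr1d2. It was -0.45 for Per1, -0.53 for Hlf, -0.59 for Per3, -0.70 for Per2 and -0.77 for Tef. The hour at which each heart was taken is not given in the sources used here, and the part of the clock in the Slc41a3 difference was not tested.

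**Figure D5:**
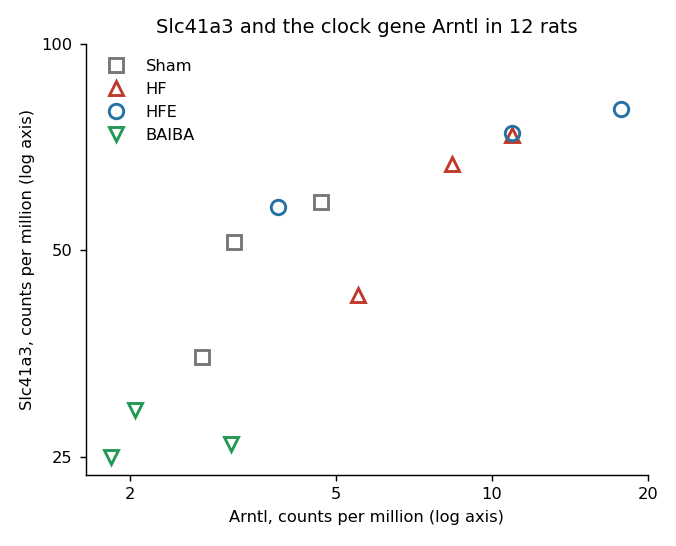
CPM of Slc41a3 against CPM of Arntl, both on log axes, with 1 open symbol per rat and shapes and colours by group. The points rise together (r = 0.88, n = 12), with the 3 BAIBA rats at the lower left and HFE rats 1 and 2 at the upper right.

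Sums of marker genes were also read beside Slc41a3 in BAIBA and HFE. The macrophage sum of 8 genes ranged from 143.3 to 320.1 CPM in BAIBA and from 88.7 to 121.8 CPM in HFE, without overlap. The erythroid sum of 7 genes ranged from 912.1 to 1312 CPM in BAIBA and from 725.7 to 835.8 CPM in HFE, also without overlap. The cardiomyocyte sum of 11 genes overlapped, at 51009 to 59205 CPM in BAIBA and 51832 to 59051 CPM in HFE. The fibroblast and scar, endothelial, smooth muscle, lymphocyte, adipocyte and atrial sums overlapped as well. Of single genes tested, 15.5% did not overlap in BAIBA against HFE. No marker of these lists was at 0 in all rats, and their part in the Slc41a3 difference was not tested.

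Of the neighbours of Slc41a3 in the RefSeq order of protein-coding genes, Iqsec1 ranged from 90.7 to 114.3 CPM in BAIBA and from 84.0 to 116.6 CPM in HFE, with a log2 fold change of 0.02 (SE 0.14). Aldh1l1, on the other side, had 4 to 17 counts per library, too few to be fitted. RefSeq also places a long noncoding RNA within the span of Slc41a3, and since the sources used here do not say whether counting used strand, its reads cannot be told apart from those of Slc41a3.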

How the data were processed

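RNA bound to oligo(dT) beads from 12 hearts was made into paired-end libraries. The authors used HISAT2 for alignment, StringTie and Gffcompare to add genes, and featureCounts for counting. The submitters' processing notes name the mouse build mm9 although the gene identifiers are those of rat, so no coordinates of the files were used. Versions and use of strand are not given in the sources used here. The deposited counts are raw and whole, and the authors made the FPKM values from those counts and gene lengths. A second pair of deposited tables held the same values (0 differences). Replicates differed by more than sampling noise (chi-square per degree of freedom 11.8 to 33.7).

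Here each of 6 comparisons was fitted on the counts of its 2 groups with edgeR 4.0.16 in R 4.3.3 (TMM, filterByExpr, robust quasi-likelihood test, no covariate). Genes were called at a Benjamini-Hochberg adjusted p under 0.05 over all genes tested together with a log2 fold change beyond 1 in either direction. Adjusted p-values without another name are edgeR's. SE was obtained as log2 fold change over the root of the F statistic. The procedure was tested on simulated data. Alternatives were DESeq2 1.42.0, RLE and library-size scaling, other filters, the replicate number as a block, 1 fit of the 12 rats, limma 3.58.1 on log2(FPKM + 1) or log2(FPKM + 0.1), calls without a fold limit, and each rat left out. The exact permutation tests (HF against Sham, all 8 members, not adjusted) used scipy 1.17.1.

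Same-numbered rats are different animals. Their deviations from group means correlated in every pair of BAIBA with HFE (0.138 to 0.261), a hint from the data that these numbers may pair the rats. The main fit had no block there either, and the blocked fit was an alternative. In the other comparisons at least 1 pair was under 0.1.

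The members, the gene lists and the tests were chosen with earlier results of these data known. Named genes were the members, list genes called in any comparison or among the 3 most abundant per length of their list, the 5 genes with the highest and the 5 with the lowest r to Slc41a3, and its neighbours. Arntl, the other clock genes and the other list genes named were chosen after their values were seen. Marker and pathway symbols missing from the table were left out.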

Additional observations from a re-analysis of the deposited data

How the results depend on the processing

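The number of members called stayed at 0 under all 16 alternatives in each of HF against Sham, HFE against HF, BAIBA against Sham and HFE against Sham, and the replicate block changed no member's call in any comparison (BAIBA against HFE: 1 called, Slc41a3 at -1.39). In BAIBA against HF, DESeq2 called 1 member (Slc41a3, log2 fold change -1.20, DESeq2 adjusted p 0.00017, beside 0.566 in the main edgeR fit). Leaving out 1 rat gave 0 to 1 members there, with Slc41a3 between -1.39 and -1.04 and called only without HF rat 1. In BAIBA against HFE, the contrast that chose Slc41a3 and in which its calls support nothing, the fit of all 12 rats called 0 members (Slc41a3 at -1.40), as did limma on log2(FPKM + 1) (-1.26) and on log2(FPKM + 0.1) (-1.33). Leaving out 1 rat gave 0 to 1 members, with Slc41a3 between -1.53 and -1.30. The cause of these changes was not tested, beyond the fewer rats in a fit that leaves 1 out.

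The log2 fold change of Slc41a3 ran over the alternatives from 0.16 to 0.54 in HF against Sham, from 0.01 to 0.37 in HFE against HF, from 0.37 to 0.71 in HFE against Sham and from -1.04 to -0.68 in BAIBA against Sham. The value of 0.01 was the one without HF rat 1. Of 630 fold changes of the 7 members under the alternatives, 46 had the opposite sign, and none of these belonged to a main value over 2 SE from 0 or to Slc41a3. Over all genes, edgeR called 12 in BAIBA against HFE, where the alternatives called 2 to 170 (DESeq2 170, 3 in the fit of all 12 rats), and 6 in BAIBA against Sham, where they called 0 to 78 (DESeq2 78). Where edgeR called 0, DESeq2 called 24 in HF against Sham, 19 in HFE against HF, 29 in BAIBA against HF and 72 in HFE against Sham. At an unadjusted p under 0.05, edgeR counted 898, 1139, 834 and 1656 genes there. Of the 5 genes most like Slc41a3, 5 remained on log2(FPKM + 0.1) and 1 by Spearman's rho, and of the 5 most unlike it 1 and 4 remained. The order of the members was the same by median FPKM. With 3 rats a group and 18 to 69 counts per library for Slc41a2 and Cnnm2, small differences in these genes could not be seen, and Trpm6 was below the filter of the main fits.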
